A study of Mus musculus with 12 samples.

Results

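The 9 genes described here encode enzymes of the tricarboxylic acid (TCA) cycle: citrate synthase (Cs), the 3 subunits of NAD-dependent isocitrate dehydrogenase (Idh3a, Idh3b and Idh3g), the E1 subunit of the oxoglutarate dehydrogenase complex (Ogdh) and the 4 subunits of succinate dehydrogenase (Sdha, Sdhb, Sdhc and Sdhd). They were taken from the deposited count table by gene symbol, 9 of its 22607 genes, from a list drawn up with earlier results of these data known. RNA was sequenced from tibialis anterior, a fast shin muscle, of C57BL/6 male mice aged 13 weeks. All muscles were transduced, either with a GFP vector that served as the empty control or with a Crtc2 expression vector, whose product is a coactivator that works with CREB. The mice were fed ad libitum or taken through 3 rounds of alternate day fasting (ADF). This gave 4 groups of 3 libraries each, named by diet and vector, and the promoter and cell type that drive the transgene are not given in the labels.

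The TCA cycle runs in the mitochondrial matrix, oxidises acetyl groups from carbohydrate, fat and amino acids to carbon dioxide, and passes the electrons to the respiratory chain. Succinate dehydrogenase belongs to both systems: Sdha holds the flavin and the succinate site, Sdhb carries the iron-sulphur clusters, and Sdhc and Sdhd anchor the complex in the inner membrane and bind ubiquinone. In skeletal muscle the cycle is most active in oxidative fibres, and citrate synthase activity is a common measure of mitochondrial content.

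In GFP muscle, ADF was accompanied by higher Ogdh, 2.62 times the fed level, and higher Sdha, 1.88 times, while the other 7 genes did not pass the test. In that comparison 7.12% of all genes passed, 4.06% as higher. In Crtc2 muscle 6 of the 9 rose with ADF, where 6.3% of all genes rose: Sdha, Ogdh, Sdhd, Idh3b, Idh3a and Cs. The catalytic subunit Sdha rose and its partner Sdhb did not in either vector, so that the ratio of the 2 transcripts within a library moved from between 0.627 and 0.852 in fed muscle to between 1.54 and 2.04 under ADF. No difference between Crtc2 and GFP muscle at the same diet passed edgeR's test for any of the 9.

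The 9 genes lie at separate loci on GRCm38: Cs at chr10:128337734-128362479 (+ strand), Idh3a at chr9:54586334-54604661 (+), Idh3b at chr2:130279309-130284547 (−), Idh3g at chrX:73778963-73786897 (−), Ogdh at chr11:6291633-6356642 (+), Sdha at chr13:74322254-74350280 (−), Sdhb at chr4:140961203-140979193 (+), Sdhc at chr1:171127165-171150603 (−) and Sdhd at chr9:50596357-50603812 (−). Reads were counted over gene exons. Idh3b shares 5 exonic bases with Nop56 on the opposite strand, and no other member overlaps another gene's exons.

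Promoter sequence is shown for the genes that moved most, Ogdh, Sdha and Sdhd, and for Sdhb, the partner of Sdha that did not pass the test, because the vector expresses a CREB coactivator and because members of 1 enzyme differed in their response. The windows are 100 bases long, are credited to RefSeq on GRCm38.p6, run 5′ to 3′ on the gene's strand, and end before both the first start site in the promoter table and the annotated gene span. Capitals mark matches, on either strand, to TGACGTCA (the cAMP response element, CRE), the NRF1 motif with 1 free base, CCGGAAG (ETS factors, including GABP) and GGGCGG (Sp1).
Ogdh, chr11:6291497-6291596 (+): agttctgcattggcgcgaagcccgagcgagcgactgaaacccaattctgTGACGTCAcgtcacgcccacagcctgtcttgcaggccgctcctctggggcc
Sdha, chr13:74350281-74350380 (−): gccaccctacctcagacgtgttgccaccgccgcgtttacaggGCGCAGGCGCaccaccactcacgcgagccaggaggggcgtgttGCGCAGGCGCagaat
Sdhd, chr9:50603850-50603949 (−): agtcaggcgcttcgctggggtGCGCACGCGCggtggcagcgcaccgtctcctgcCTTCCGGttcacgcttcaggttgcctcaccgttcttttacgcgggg
Sdhb, chr4:140961103-140961202 (+): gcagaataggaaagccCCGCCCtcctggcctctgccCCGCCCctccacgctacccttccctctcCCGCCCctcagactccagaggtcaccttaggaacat

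The CRE of Ogdh lies at chr11:6291546-6291553, 51 bases before the first of its 6 start sites in the table. Matches were counted by gene, over all start sites of each, for the 7 members in the promoter table (Cs, Idh3b, Idh3g, Ogdh, Sdha, Sdhb and Sdhd). Only Ogdh held TGACGTCA, as did 2.03% of 27025 genes and 1.79% of all 32851 promoters of 300 bases. The shorter TGACG, which overlaps the CRE, was found in Idh3b, Idh3g and Ogdh, in 23.0% of genes and in 20.8% of promoters. Sdha held 3 matches to this NRF1 motif, the third of them downstream of the printed window, and Sdhd held 1. That motif was present in 5.19% of genes and 4.6% of promoters, and 32 promoters, 0.0974%, held 3 or more matches.

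The NRF1 motif with A as its free base was in 0 of the 7, in 1.07% of genes and in 0.971% of promoters. CCGGAAG was found in Idh3b, Idh3g, Sdhb and Sdhd (9.93% of genes and 8.86% of promoters). AAGGTCA, a nuclear receptor and ERR motif, was found in Ogdh, at a later start site, and in Sdhd (5.38% and 4.72%). GGGCGG was in Cs, Ogdh, Sdhb and Sdhd (38.2% and 35.7%). CCAAT, the NF-Y motif, was in Cs, Idh3b, Ogdh, Sdha and Sdhb (41.1% and 37.4%). These matches describe the letters alone. Binding was not measured in these libraries.

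Libraries held 24232450 to 34610417 counts, 14313 to 17226 genes were detected per library, and 16007 genes passed the filter on low counts. Each member was counted between 6164 and 52917 times per library, and the 9 together took 0.511 to 0.875% of a library's counts, so all 9 passed the filter and counting error was small beside the spread between libraries. Levels below are CPM, counts scaled to library size after trimmed-mean (TMM) adjustment, with SD over 3 libraries. Transcripts of Crtc2 were at 29.2, 17.3 and 24.02 CPM in fed GFP and 64.9, 58.2 and 77.9 in fed Crtc2 muscle. Under ADF they were at 19.7, 16.1 and 23.6 CPM with GFP and at 42.8, 40.6 and 31.4 with Crtc2, without overlap at either diet. The log2 difference between vectors was 1.51 ± 0.28 in fed and 0.95 ± 0.27 in ADF muscle, and neither passed edgeR's test over all genes (adjusted p = 0.134 and 0.127). In Crtc2 muscle the ADF level of Crtc2 was 0.571 times the fed level (adjusted p = 0.0623). The first principal component (39.4% of the variance) placed all ADF libraries between -50.9 and -20.6 and all fed libraries between 21.2 and 52.1. The 6 skeletal muscle markers (Acta1, Ckm, Des, Tnnt3, Tnni2 and Mb) were present in every library and summed to 80562 to 139953 CPM, while the 8 slow fibre markers summed to 148 to 543 CPM.

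**Figure D1:**
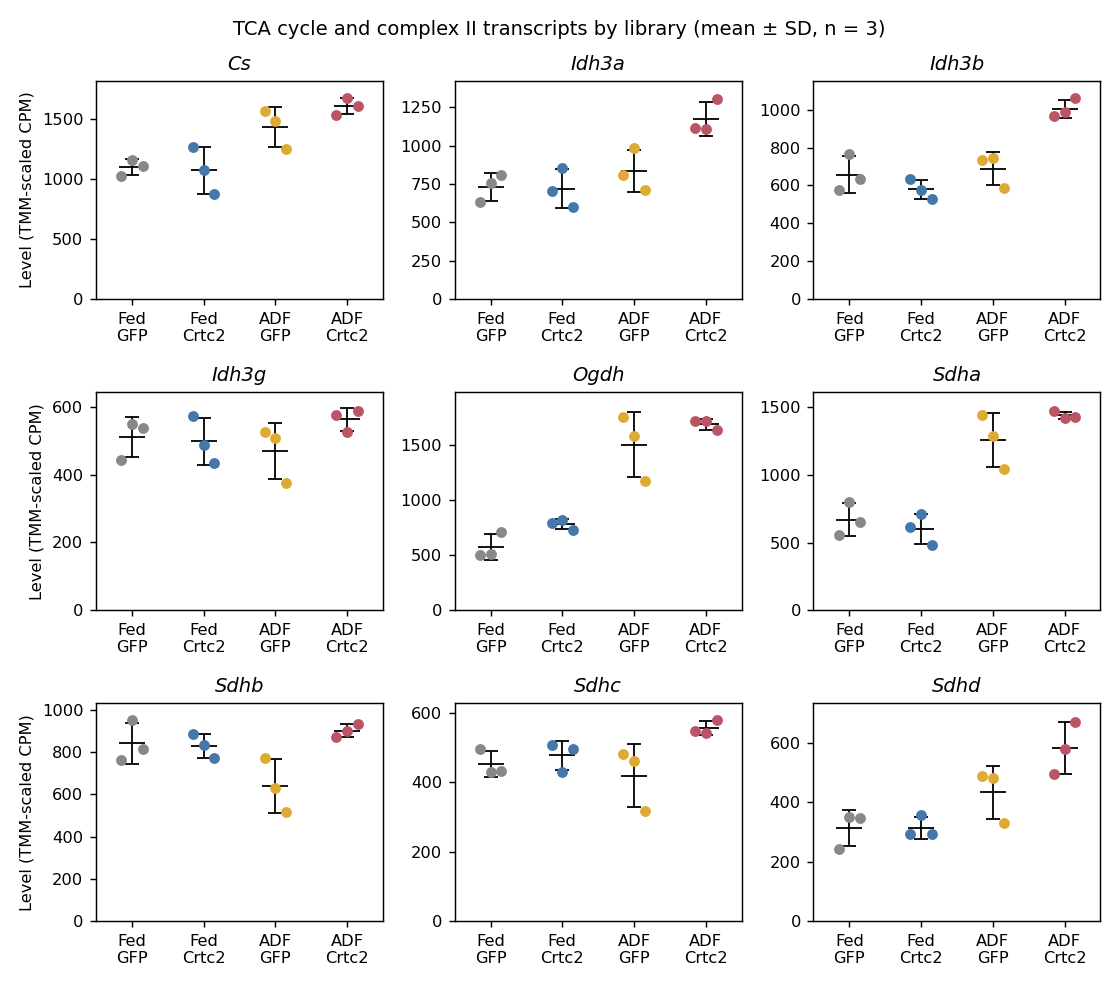
Level of each of the 9 genes in every library, in CPM with TMM-scaled library sizes on linear axes from 0, by group; points are libraries and bars are means ± SD over 3. Ogdh and Sdha stand higher in every ADF library than in any fed library, whereas the fed and ADF points of Idh3g overlap.

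Ogdh, which commits the cycle to the oxidation of 2-oxoglutarate, was at 499, 508 and 713 CPM in fed GFP and at 1749, 1581 and 1174 in ADF GFP muscle. In Crtc2 muscle it was at 795, 818 and 728 CPM when fed and at 1714, 1711 and 1629.7 under ADF. All 6 ADF libraries lay above all 6 fed libraries. The rise with ADF was 1.39 ± 0.18 on the log2 scale in GFP muscle (SE; edgeR adjusted p = 3.88e-05) and 1.11 ± 0.18 in Crtc2 muscle (adjusted p = 0.00025). Both calls held under all 22 alternatives computed, with log2 changes from 1.26 to 1.58 and from 0.82 to 1.15.

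Sdha, the flavoprotein of succinate dehydrogenase, was at 557, 799.5 and 655 CPM in fed GFP and at 1445, 1287 and 1044 in ADF GFP muscle. In Crtc2 muscle its values were 614, 709 and 484 CPM when fed and 1471, 1419 and 1429.8 under ADF. As with Ogdh, the lowest ADF library exceeded the highest fed library. The log2 rise was 0.91 ± 0.18 in GFP muscle (edgeR adjusted p = 0.00303) and 1.26 ± 0.18 in Crtc2 muscle (adjusted p = 8.02e-05), and both calls held under all 22 alternatives (0.79 to 1.03 and 0.95 to 1.39).

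Sdhb, the iron-sulphur subunit, did not pass the test in either vector. Its levels were 761, 949.9 and 814 CPM in fed GFP and 773, 632 and 515 in ADF GFP muscle, where 2 of the 3 ADF libraries lay below every fed library. With Crtc2 they were 884, 832 and 772 CPM when fed and 872, 901 and 931 under ADF, with overlap. The log2 difference was -0.39 ± 0.17 in GFP muscle (edgeR adjusted p = 0.187) and 0.12 ± 0.17 in Crtc2 muscle (adjusted p = 0.756). The first passed as lower with DESeq2 (-0.44, adjusted p = 0.0378), with edgeR scaled by library totals (-0.51, 0.0403) and over the genes that averaged 10 CPM or more (-0.50, 0.0403). Adjusted p ranged from 0.0378 to 0.508 over its alternatives, and the difference was -0.26 without ADF GFP replicate 3.

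Of the 2 membrane anchors, Sdhd rose in Crtc2 muscle and Sdhc passed in neither vector. Sdhc was at 495, 430.3 and 432 CPM in fed GFP and 480.4, 461 and 317 in ADF GFP muscle, and at 506, 429 and 496 in fed Crtc2 and 546, 541 and 578 in ADF Crtc2 muscle. Its groups overlapped with GFP and did not with Crtc2, and neither log2 difference passed (-0.11 ± 0.17, adjusted p = 0.824, and 0.22 ± 0.17, adjusted p = 0.497, edgeR). Sdhd was at 243, 350.3 and 349 CPM in fed GFP and 489, 482 and 332 in ADF GFP muscle, where 1 ADF library fell within the fed range. In Crtc2 muscle it was at 292, 358 and 293 CPM when fed and 494, 581 and 669.9 under ADF, without overlap. Sdhd rose by 0.89 ± 0.20 on the log2 scale in Crtc2 muscle (edgeR adjusted p = 0.00429), and the GFP difference was 0.47 ± 0.19 (adjusted p = 0.176). With an offset for gene length the GFP difference became 0.70 and passed (adjusted p = 0.0398), in a range of 0.0369 to 0.473 over its alternatives. Under scaling by library totals the Crtc2 call of Sdhd was lost (0.59, adjusted p = 0.0682), the largest p among its alternatives (from 0.000159).

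Cs, which condenses acetyl-CoA with oxaloacetate at the entry of the cycle, was at 1028, 1161 and 1104 CPM in fed GFP and 1563, 1483 and 1246 in ADF GFP muscle. In Crtc2 muscle it was at 1268, 1075 and 876 CPM when fed and 1534, 1669.7 and 1606 under ADF. The diets did not overlap in either vector. The log2 difference of 0.38 ± 0.16 in GFP muscle did not pass (edgeR adjusted p = 0.192), and that of 0.58 ± 0.16 in Crtc2 muscle did (adjusted p = 0.024). The Crtc2 call was lost without ADF Crtc2 replicate 1 (adjusted p = 0.0568), 2 (0.0916) or 3 (0.0759), without fed Crtc2 replicate 2 (0.057) or 3 (0.114), and under scaling by library totals (log2 0.29, adjusted p = 0.254). The adjusted p of Cs ranged from 0.00332 to 0.254 over its alternatives.

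The isocitrate dehydrogenase subunits rose with ADF in Crtc2 muscle except for Idh3g. Idh3a, the catalytic subunit, was at 631, 756 and 805 CPM in fed GFP and 809, 981 and 713 in ADF GFP muscle, and at 704, 856 and 599 in fed Crtc2 and 1113, 1109 and 1304 in ADF Crtc2 muscle. Idh3b was at 575, 763 and 634 CPM in fed GFP and 734, 745 and 587 in ADF GFP muscle, and at 631, 577 and 529 in fed Crtc2 and 964, 988 and 1059 in ADF Crtc2 muscle. For both, the GFP groups overlapped and the 3 ADF Crtc2 libraries exceeded the other 9. Idh3a rose by 0.71 ± 0.18 on the log2 scale (edgeR adjusted p = 0.0107) and Idh3b by 0.79 ± 0.16 (adjusted p = 0.00254) in Crtc2 muscle, against 0.19 ± 0.18 (0.638) and 0.07 ± 0.16 (0.904) in GFP muscle.

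The Idh3b call in Crtc2 muscle held under all 22 alternatives (0.50 to 0.86). That of Idh3a was lost without ADF Crtc2 replicate 3 (adjusted p = 0.0653), without fed Crtc2 replicate 3 (0.0545) and under library totals (log2 0.40, adjusted p = 0.199), in a range of 0.000648 to 0.199. Idh3g, a regulatory subunit, was at 444, 549.9 and 539 CPM in fed GFP, 524, 509 and 375 in ADF GFP, 572, 488 and 435 in fed Crtc2 and 576, 525 and 586 in ADF Crtc2 muscle. Its values overlapped between the diets in both vectors, with log2 differences of -0.12 ± 0.17 and 0.18 ± 0.17 (edgeR adjusted p = 0.8 and 0.624).

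Counted together for ADF against fed GFP muscle, 2 of the 9 members rose and 0 fell, where 7.12% of all genes tested passed by edgeR, 4.06% higher and 3.06% lower. For 3 members (Cs, Ogdh and Sdha) the groups did not overlap, as for 25.6% of genes. The median log2 change of the members was 0.19, beside -0.01 over all genes. Leaving out ADF GFP replicate 2 brought that median to 0.06, leaving out replicate 3 of the same group to 0.30, and leaving out fed GFP replicate 1 to 0.10. In Crtc2 muscle 6 of 9 rose and 0 fell, where 6.3% of genes were higher and 4.68% lower. Groups did not overlap for 7 members, as for 30.5% of genes, and the medians were 0.71 and -0.13. An unadjusted p under the threshold was found for 5 members in GFP and 6 in Crtc2 muscle, beside 19.8% and 24.4% of all genes. Scaling by library totals moved the median of all genes to -0.11 in GFP and -0.42 in Crtc2 muscle and left 2 members called higher and 1 lower (Sdhb) in GFP, and 3 higher (Ogdh, Sdha and Idh3b) in Crtc2 muscle. Under that scaling 476 of 16007 genes were called higher and 596 lower in GFP muscle, and 511 higher and 1234 lower in Crtc2 muscle. Rises were thus 44.4% of the calls over all genes in GFP muscle in place of 57.0%, and 29.3% in place of 57.4% in Crtc2 muscle. Over the genes that averaged 10 CPM or more, 45.5% of the calls in GFP muscle were rises and in Crtc2 muscle 946 genes rose and 946 fell, and with DESeq2 the shares of rises were 51.4% and 45.9%.

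Markers moved beside these changes. The summed skeletal muscle markers ran from 80562 to 122429 CPM in fed Crtc2 and from 131336 to 139953 in ADF Crtc2 muscle, without overlap, and from 82535 to 103551 in fed GFP and 95016 to 138802 in ADF GFP muscle. Of the 6, only Acta1, which encodes skeletal alpha actin, rose in each vector, and 0 fell. The 8 slow fibre markers summed to 238 to 543 CPM in fed GFP, 250 to 334 in ADF GFP, 249 to 485 in fed Crtc2 and 148 to 201 in ADF Crtc2 muscle, and 1 of 8, the slow troponin T gene Tnnt1, fell with ADF in each vector. The 9 fast fibre markers summed to 97238 to 167882 CPM over all libraries, with 1 rise (Atp2a1) and 1 fall (Mylpf) in each vector. Markers of other cell types moved as well. In Crtc2 muscle the 7 endothelial markers summed to 333 to 458 CPM when fed and 227 to 293 under ADF, and 2 of 7 fell (Kdr and Esam). The 7 T cell markers summed there to 9.19 to 64.8 and 1.34 to 4.82 CPM, and 1 of 7, Cd3g, fell. In GFP muscle 1 of 6 fibroblast markers, Dcn, rose. All 6 were above 0 there, with a median log2 change of 0.85. They summed to 603 to 1598 CPM when fed and 1260 to 2687 under ADF, with overlap. The 5 erythroid markers were also all above 0 there, with a median of 1.10, 0 edgeR calls and 2 at an unadjusted p under the threshold. The 10 macrophage markers summed there to 398 to 463 CPM when fed and 517 to 826 under ADF, with 0 edgeR calls and 3 at an unadjusted p under the threshold. The 5 Schwann cell and nerve markers had a median log2 change of -2.50 in GFP and 1.73 in Crtc2 muscle (4 of 5 above 0), with 0 edgeR calls. In Crtc2 muscle they summed to 17.4 to 58.4 CPM when fed and 80.9 to 204 under ADF, and 2 had an unadjusted p under the threshold. The part of these markers in the result was not tested, and in whole muscle fewer cells of a type and less RNA per cell cannot be told apart. ADF GFP replicate 3 was the lowest of its group for 9 of 9 members, fed GFP replicate 1 for 8 and fed Crtc2 replicate 3 for 7. Without ADF GFP replicate 3 the rise with ADF in GFP muscle was 1.54 for Ogdh and 1.03 for Sdha on the log2 scale, and both remained past the threshold. Without fed Crtc2 replicate 3 the median of the 9 members in Crtc2 muscle was 0.59 in place of 0.71.

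**Figure D2:**
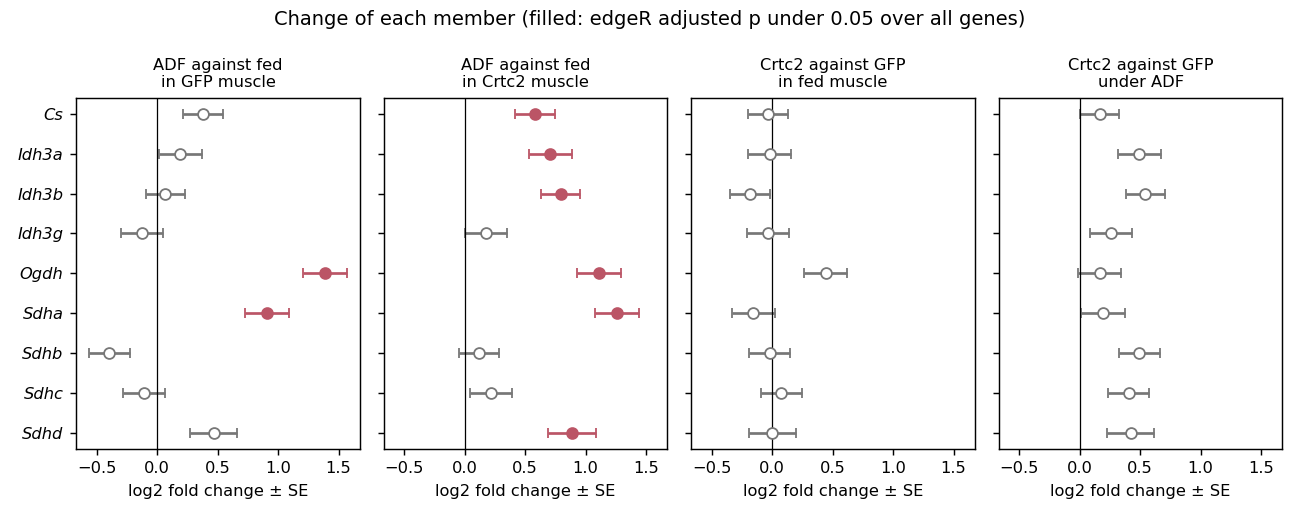
Log2 fold change ± SE (edgeR) of each of the 9 genes in the 4 comparisons of 2 groups; filled points had an adjusted p under 0.05 over all genes and the vertical line marks no change. With ADF, 2 genes in GFP and 6 in Crtc2 muscle passed, and none passed between vectors.

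The comparison of vectors asks what Crtc2 changed at a given diet. In fed muscle 0 of the 9 members were called by edgeR, as were 0% of all genes tested, 1 member (Ogdh) had an unadjusted p under the threshold, as did 5.44% of genes, and DESeq2 called 0. Over all genes DESeq2 called 64 of 16007 there, 35 higher and 29 lower. Ogdh in fed Crtc2 muscle lay above fed GFP muscle in all 3 libraries (log2 0.44 ± 0.18, edgeR adjusted p = 0.877), where groups did not overlap for 8.53% of genes. The other 8 ranged from -0.18 to 0.08.

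Under ADF, 0 of the 9 members were called by edgeR, where 0.725% of genes were (0.075% higher and 0.65% lower), and all 9 log2 differences were above 0, from 0.16 to 0.54, with a median of 0.40 beside -0.01 over all genes. Without ADF GFP replicate 3 that median was 0.24, with Ogdh at 0.01 and Sdha at 0.07. With the offset for gene length the median was 0.28. In the fit over the genes that averaged 10 CPM or more it was 0.38, beside 0.05 for all those genes. The 8 further cycle enzymes described below were also all above 0 here, with a median of 0.33. Idh3a, Idh3b, Sdhb, Sdhc and Sdhd had an unadjusted p under the threshold, as did 11.3% of genes. With Idh3g they were the 6 members whose groups did not overlap, as was true for 21.4% of genes. The largest differences were those of Idh3b (0.54 ± 0.16, edgeR adjusted p = 0.151), Sdhb (0.49 ± 0.17, 0.233) and Idh3a (0.49 ± 0.18, 0.261). DESeq2 called 2 of the 9, Idh3b (0.55, adjusted p = 0.00743, in a range up to 0.616) and Sdhb (0.50, adjusted p = 0.0341, in a range up to 0.732). Over all genes DESeq2 called 556 of 16007, 126 higher and 430 lower. Scaling by library totals moved the median of all genes to -0.22 and left 7 of 9 members above 0, with Cs at -0.03 and Ogdh at -0.02.

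Cell type markers differed between the same groups. The 10 macrophage markers summed to 517 to 826 CPM in ADF GFP and 184 to 276 in ADF Crtc2 muscle, and 4 of 10 fell (Cd68, Csf1r, C1qc and Lyz2). The 6 fibroblast markers summed to 1260 to 2687 and 636 to 978 CPM, with 0 calls, and the 7 T cell markers to 18.4 to 61.7 and 1.34 to 4.82 CPM, where Cd3g fell and was at 0 in all ADF Crtc2 libraries. The 5 Schwann cell and nerve markers went the other way, with sums of 28.0 to 59.5 CPM in ADF GFP and 80.9 to 204 in ADF Crtc2 muscle, a median log2 difference of 1.26, 0 edgeR calls and 1 at an unadjusted p under the threshold. Of the 8 slow fibre markers Tnnt1 and Tnni1 fell. The 6 skeletal muscle markers were all higher with Crtc2 under ADF by fitted value, with a median log2 difference of 0.32, and 0 of them passed. In fed muscle the macrophage markers summed to 398 to 463 CPM with GFP and 219 to 319 with Crtc2, without overlap. Their median log2 difference was -0.71 (2 of 10 above 0), and 3 had an unadjusted p under the threshold. Slow fibre markers had a median of -1.03 there (1 of 8 above 0), 4 at such a p, and sums that overlapped. By edgeR 0 of either list were called in fed muscle. The part of these markers in the members' differences was not tested.

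The interaction, which is the response to ADF in Crtc2 muscle minus that in GFP muscle, was above 0 for 8 of 9 members and below 0 for Ogdh (-0.28 ± 0.25 on the log2 scale). The members' median was 0.35, beside -0.08 over all genes. The interaction was also above 0 for 8 of 8 further cycle enzymes (median 0.28), 5 of 6 skeletal muscle markers (0.27) and 8 of 9 fast fibre markers (0.22). It was above 0 for 4 of 8 slow fibre, 0 of 10 macrophage, 0 of 7 T cell, 0 of 7 endothelial and 0 of 6 fibroblast markers. By edgeR 0 of 9 members and 0% of all genes passed, and 2 members (Idh3b and Sdhb) had an unadjusted p under the threshold, as did 7.75% of genes. The largest was that of Idh3b, 0.73 ± 0.23 (edgeR adjusted p = 0.516), which DESeq2 called (0.73, adjusted p = 0.0416, in a range of 0.0416 to 0.799 over its alternatives). DESeq2 called no other member. Over all genes it called 111 of 16007 for the interaction, 26 higher and 85 lower. The larger number of members past the threshold in Crtc2 than in GFP muscle therefore does not stand as a difference between vectors in edgeR's test of that difference.

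Ratios of 2 transcripts in the same library do not depend on how libraries are scaled to each other. For 10 ratios, log2 values were compared between diets with labels permuted within each vector, and between vectors with labels permuted within each diet (exact two-sided permutation test over 400 arrangements, smallest possible p 0.005, adjusted over 20 tests). Sdha/Sdhb was 0.733, 0.842 and 0.804 in fed GFP, 0.694, 0.852 and 0.627 in fed Crtc2, 1.87, 2.04 and 2.03 in ADF GFP and 1.69, 1.58 and 1.54 in ADF Crtc2 muscle. Every ADF library lay above every fed library, with a mean log2 difference of 1.24 (1.32 in GFP and 1.15 in Crtc2 muscle; exact permutation p = 0.005, adjusted 0.0125).

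The Sdha/Sdhc ratio was 1.13 to 1.86 in fed GFP, 0.976 to 1.65 in fed Crtc2, 2.79 to 3.3 in ADF GFP and 2.47 to 2.69 in ADF Crtc2 muscle, a mean log2 difference of 1.05 between diets. Sdhb/Sdhd was lower under ADF by a log2 difference of -0.82 and Sdhc/Sdhd by -0.63. Sdha/Sdhd differed by 0.42, and each of these 4 had an exact permutation p of 0.005 (adjusted 0.0125). After the offset for gene length the Sdha/Sdhd difference was 0.24 and no longer passed (exact permutation test, adjusted p = 0.156, the largest of its alternatives). Sdhb/Sdhc did not pass, at -0.19 (exact permutation p = 0.09, adjusted 0.164), and passed without fed GFP replicate 1 (-0.26, adjusted 0.0444). By ratio, the 4 subunits fell into an order of response to ADF: Sdha, then Sdhd, then Sdhc and Sdhb. The order of Sdhc and Sdhb was not resolved, and that of Sdha and Sdhd was not resolved after the length offset.

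In isocitrate dehydrogenase, Idh3a/Idh3b did not pass between diets. It was 0.991 to 1.27 in fed GFP, 1.12 to 1.48 in fed Crtc2, 1.1 to 1.32 in ADF GFP and 1.12 to 1.23 in ADF Crtc2 muscle. Its mean log2 difference was 0.02 (0.12 in GFP and -0.08 in Crtc2 muscle, exact permutation p = 0.835, adjusted 0.96), with overlap in both vectors. Idh3a/Idh3g and Idh3b/Idh3g were higher under ADF by 0.43 and 0.41 (exact permutation p = 0.005, adjusted 0.0125 each). Idh3a/Idh3g rose by 0.32 in GFP and 0.54 in Crtc2 muscle, and Idh3b/Idh3g by 0.20 and 0.61, without overlap in either vector. Ogdh/Cs was 0.485, 0.438 and 0.646 in fed GFP, 0.627, 0.761 and 0.831 in fed Crtc2, 1.12, 1.07 and 0.943 in ADF GFP and 1.12, 1.02 and 1.01 in ADF Crtc2 muscle. Its diet difference was 0.76 (1.01 in GFP and 0.52 in Crtc2 muscle), again without overlap in either vector (exact permutation p = 0.005, adjusted 0.0125).

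In all, 8 of 10 ratios passed between diets and 0 of 10 between vectors, where the test averaged the 2 diets. Under ADF alone, which was not tested, the vectors did not overlap for Sdha/Sdhb (-0.31), Sdha/Sdhc (-0.22), Idh3a/Idh3g (0.23) and Idh3b/Idh3g (0.28). In fed muscle they overlapped for every ratio, with Idh3b/Idh3g at -0.14. The smallest p between vectors was that of Sdha/Sdhb, lower with Crtc2 by a log2 difference of -0.22 (exact permutation p = 0.03, adjusted 0.0667), which passed without fed Crtc2 replicate 2 (-0.28, adjusted 0.0222).

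**Figure D3:**
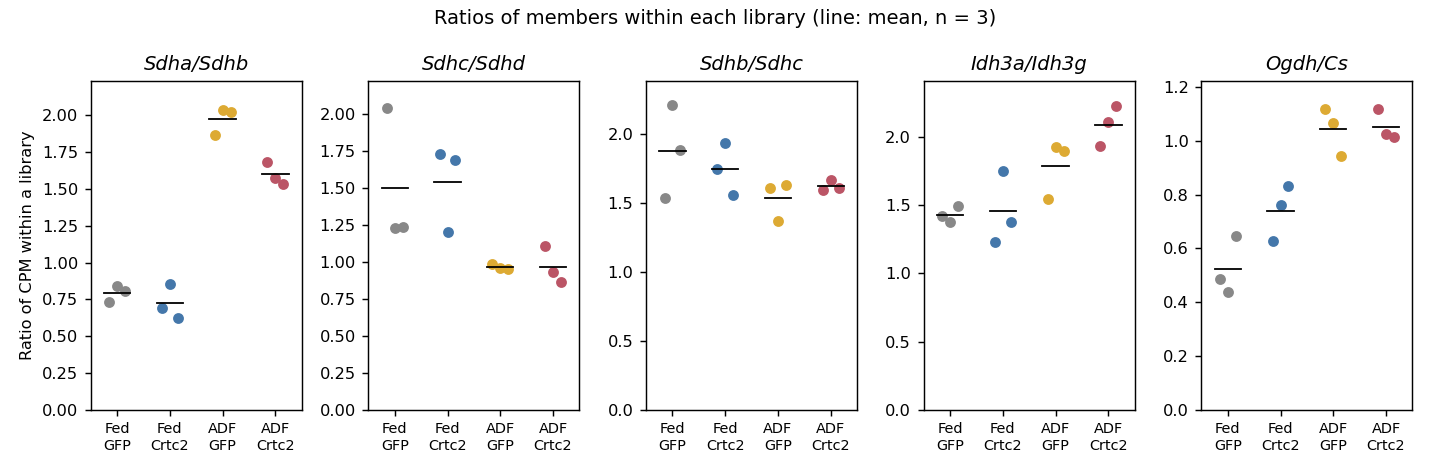
Ratio of the CPM values of 2 members within each library, for 5 of the 10 ratios, on linear axes from 0, by group; points are libraries and lines are means over 3. Sdha/Sdhb lies between 1.54 and 2.04 in every ADF library and between 0.627 and 0.852 in every fed library.

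The members differ in length, from 1231 exonic bases (Sdhd) to 5779 (Cs), and the log2 change of genes that averaged 10 CPM or more followed exonic length to some degree. Over 7788 genes, which are not independent replicates, Spearman's rho of the change with length was 0.17 for ADF in GFP muscle, 0.05 for ADF in Crtc2 muscle, -0.19 for Crtc2 under ADF and 0.03 for Crtc2 in fed muscle. With a length offset per library these became 0.03, 0.05, 0.00 and -0.01. In GFP muscle the offset moved Ogdh from 1.39 to 1.30, Sdha from 0.91 to 0.85 and Sdhd from 0.47 to 0.70. In Crtc2 muscle it left all 6 member calls in place. With the offset the median of the 9 members under ADF went from 0.19 to 0.10 in GFP and from 0.71 to 0.69 in Crtc2 muscle. For Crtc2 against GFP under ADF the median went from 0.40 to 0.28, and all 9 members stayed above 0.

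**Figure D4:**
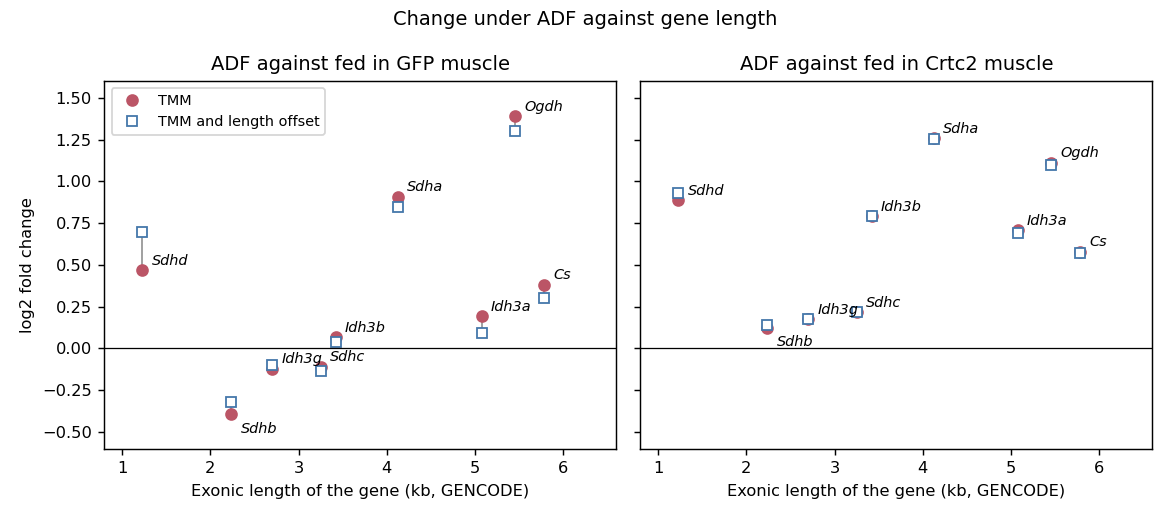
Log2 fold change with ADF of each of the 9 genes against its exonic length in kilobases, in GFP and in Crtc2 muscle; filled circles are from TMM scaling and open squares from TMM scaling with the length offset. Ogdh and Sdha stand highest in GFP muscle on both scalings, and the largest shift with the offset is that of Sdhd, from 0.47 to 0.70.

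Levels can be set between genes only per length. Per kilobase of the principal transcript, Sdhb stood highest in all 4 groups, at mean levels of 737 ± 85.4 CPM per kilobase in fed GFP, 726 ± 48.8 in fed Crtc2, 561 ± 113 in ADF GFP and 789 ± 25.9 in ADF Crtc2 muscle (SD, n = 3). In fed GFP muscle the order below it was Idh3b (407 ± 59.6), Idh3g (384 ± 43.9), Cs (375 ± 22.8), Idh3a (304 ± 37.4), Sdhd (255 ± 50.2), Sdha (231 ± 42.0), Sdhc (143 ± 11.6) and Ogdh (139 ± 29.4). Neighbours in that order overlapped in their library values except 3 pairs: Sdhb and Idh3b, Cs and Idh3a, and Sdha and Sdhc. In ADF GFP muscle Ogdh stood at 365 ± 71.8 and Sdha at 434 ± 69.5 CPM per kilobase, ranks 5 and 3 in place of 9 and 7, and Sdhc was lowest at 132 ± 28.2. In ADF Crtc2 muscle Ogdh stood at 409 ± 11.6 (rank 8) and Sdha at 497 ± 9.4 (rank 4), and Sdhc was again lowest at 175 ± 6.43. The order depends on the length used: per kilobase of all exons Sdhd, not Sdhb, ranked highest under ADF.

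Of 8 further genes for enzymes of the cycle (Idh2, Dlst, Dld, Sucla2, Suclg1, Suclg2, Fh1 and Mdh2), 1 rose and 0 fell with ADF in GFP muscle and 3 rose and 0 fell in Crtc2 muscle by edgeR, with median log2 changes of 0.35 and 0.52. Of all genes 4.06% and 6.3% rose, with medians of -0.01 and -0.13. Sucla2, a subunit of the ADP-forming succinyl-CoA synthetase, was at 267, 349 and 356 CPM in fed GFP and 445, 625 and 466 in ADF GFP muscle, a log2 rise of 0.66 ± 0.18 (adjusted p = 0.03). In Crtc2 muscle it went from 329.6, 391 and 279.5 CPM to 641, 693 and 761, a rise of 1.07 ± 0.18 (adjusted p = 0.000491). The diets did not overlap in either vector. Dlst and Dld, the E2 and E3 partners of Ogdh in its complex, rose in Crtc2 muscle by 0.65 ± 0.18 (adjusted p = 0.0201) and 0.90 ± 0.28 (adjusted p = 0.043) and were at 0.49 ± 0.18 and 0.88 ± 0.28 without passing in GFP muscle. Between vectors 0 of the 8 were called by edgeR at either diet. Of these 8, 0 in fed muscle and 4 under ADF had an unadjusted p under the threshold, beside 5.44% and 11.3% of all genes.

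Several of these calls were lost under an alternative. In GFP muscle the Sucla2 call was lost without ADF GFP replicate 2 (0.216) or fed GFP replicate 1 (0.157), under scaling by library totals (0.124), with only the 2 groups compared (0.0834) and with the length offset (0.0513). In Crtc2 muscle the Dlst call was lost without ADF Crtc2 replicate 2 (0.0611) or 3 (0.0877) or fed Crtc2 replicate 2 (0.055) or 3 (0.0828). Scaling by library totals also ended the call of Dlst (0.178). The Dld call was lost in 14 of 22 alternatives, which included the fit with the replicate number as a block (0.0503).

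The 4 assembly factors of succinate dehydrogenase (Sdhaf1, Sdhaf2, Sdhaf3 and Sdhaf4) gave 0 edgeR calls and 0 at an unadjusted p under the threshold in both ADF comparisons. In Crtc2 muscle the log2 differences were 0.09 ± 0.58 for Sdhaf1, 0.18 ± 0.24 for Sdhaf2 and -0.76 ± 0.57 for Sdhaf3, and in GFP muscle -0.87 ± 0.58, 0.22 ± 0.24 and -0.94 ± 0.57. The median of the 4 was 0.04 in Crtc2 and -0.64 in GFP muscle. Leaving out 1 library moved Sdhaf3 between -1.38 and -0.42 in Crtc2 muscle and Sdhaf1 between -1.29 and -0.10 in GFP muscle. Of 11 genes that feed or drain the cycle, 3 rose with GFP, 4 rose with Crtc2 and 0 fell, where 4.06% and 6.3% of all genes rose. Slc25a12, the mitochondrial aspartate-glutamate carrier, rose by 0.92 ± 0.17 and 1.21 ± 0.17 on the log2 scale. Glud1, glutamate dehydrogenase, rose by 0.71 ± 0.18 and 1.08 ± 0.18, and Got2, mitochondrial aspartate aminotransferase, by 0.73 ± 0.22 and 0.95 ± 0.22. Mpc1, a subunit of the mitochondrial pyruvate carrier, rose in Crtc2 muscle by 0.70 ± 0.22 (edgeR adjusted p = 0.0397) and was at 0.02 ± 0.22 in GFP muscle.

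Of 6 cytosolic counterparts, Got1, cytosolic aspartate aminotransferase, rose in Crtc2 muscle (0.82 ± 0.20, edgeR adjusted p = 0.00955), and 0 passed in GFP muscle. Of 10 regulators of mitochondrial gene expression, Esrra, which encodes the nuclear receptor ERR alpha, rose in Crtc2 muscle (0.79 ± 0.20, adjusted p = 0.012) and was at 0.37 ± 0.20 in GFP muscle, and the other 9 were not called in either. Without ADF Crtc2 replicate 1 the Got1 call was lost (adjusted p = 0.0628), and without ADF Crtc2 replicate 3 (0.112) or fed Crtc2 replicate 2 (0.0595) that of Esrra. The Mpc1 call was lost in 9 of 22 alternatives. In GFP muscle the Got2 call was lost in 14 of 22, and the Glud1 call without ADF GFP replicate 2 (0.0911) or fed GFP replicate 1 (0.0683) or 2 (0.066). Under library totals the calls of Got1 (0.0923), Esrra (0.0879) and Got2 (0.0502) in Crtc2 muscle and of Glud1 (0.071) in GFP muscle were lost.

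Across the 12 libraries, which share their diet and vector groups, the members formed an order of likeness given here as a description. Pearson's r of log2 CPM was 0.94 between Sdha and Cs, 0.93 between Idh3a and Sdhd and 0.90 between Sdha and Ogdh. Sdhb stood apart from these, with r of -0.03 with Sdha and -0.12 with Ogdh, and was closest to Idh3g (0.79) and Sdhc (0.72). Among 7490 named genes outside the list, the gene most alike was Acadvl for Sdha (0.98), Arhgap5 for Ogdh (0.99), Ndufb9 for Sdhb (0.93), Slc25a4 for Sdhc (0.88), Atp5a1 for Sdhd (0.96), Afg3l2 for Cs (0.96), Tmem65 for Idh3a (0.97), Atp5c1 for Idh3b (0.95) and Txn2 for Idh3g (0.94).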

How the data were processed

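RNA was measured in 12 libraries, as 4 groups of 3. The authors deposited unnormalized integer read counts for each Ensembl gene. According to the submitters' processing notes, the tools were HISAT2 2.0.5, SAMtools 1.7, featureCounts, Subread 1.6.1 and DESeq2 1.18.1, and the build was GRCm38 (mm10). The annotation release, strand setting and treatment of duplicates are not given in the sources used here. TRIzol was used for extraction, per the labels' protocols, and 2 stranded library kits are listed there without assignment to libraries. No batch is labelled, so kit and group could not be compared. Whether the replicates of a group are separate animals is not stated, so p-values measure only the spread between these samples, which may be technical. Nor is it stated whether GFP and Crtc2 muscles came from the same animals, and the comparisons of vectors and the interaction were tested as unpaired.

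The table had 0 value columns outside the 12 libraries. Depth was 24232450 to 34610417 counts, and 68.9 to 74.7% of the counts from 2 to 21 were even numbers, so halved counts were tried as an alternative. The test across genes was that of edgeR 4.0.16 under R 4.3.3: TMM scaling, filterByExpr (16007 genes), a robust quasi-likelihood fit of 4 group means over all 12 libraries, and a Benjamini-Hochberg threshold of 0.05 across those genes. An unadjusted p is counted against the same 0.05. Standard errors are |log2 fold change| over √F. The edgeR fit was tested on simulated data.

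Ratios used CPM with a prior count of 0.5 and an exact permutation test. Alternatives were DESeq2 1.42.0, RLE scaling, library totals, no filter, an average of 10 CPM or more, the 2 groups alone, the replicate number as a block, a length offset, both together, halved counts, and leaving out each library. Named genes are the 9 members, pathway genes past the threshold in any comparison of 2 groups (or up to 3 with the smallest adjusted p where none passed), the most alike gene per member by Pearson's r, and Crtc2. Some genes of the cycle are not reported here. Members and gene lists were chosen with earlier results of these data known. Gene positions are from GENCODE mouse release M21 (GRCm38), which held 22582 of the 22607 genes.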

Additional observations from a re-analysis of the deposited data

How the results depend on the processing

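Ogdh and Sdha kept their calls in both ADF comparisons, and Idh3b its call in Crtc2 muscle, under all 22 alternatives run for each. Limits are the 3 libraries a group, the scaling between libraries, and low-count features, which do not include any member. Several fold changes close to 0 changed sign, and the cause was not tested.

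Leaving out each library in turn moved the number of genes called from 0 to between 0 and 18 for Crtc2 in fed muscle (18 without fed GFP replicate 2, 12 without ADF GFP replicate 3), from 116 to between 25 and 164 for Crtc2 under ADF (25 without ADF GFP replicate 3 and without ADF Crtc2 replicate 1, 51 without ADF Crtc2 replicate 3, 69 without ADF GFP replicate 1), from 1140 to between 677 and 1230 for ADF in GFP muscle (711, 677 and 740.0 without ADF GFP replicates 1, 2 and 3), from 1758 to between 1129 and 1940.0 for ADF in Crtc2 muscle (1129 without ADF Crtc2 replicate 1), and from 0 to between 0 and 3 for the interaction. An arm left with 2 libraries shares the spread of the others. DESeq2 called 64 genes for Crtc2 in fed muscle, 556 under ADF and 111 for the interaction. With no filter on low counts the numbers were 58, 385 and 67. With only the groups compared they were 7 in fed muscle and 300 under ADF, and with block and length offset together 3 in fed muscle.

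The number of members called higher was 4 to 6 for ADF in Crtc2 muscle without 1 library and 3 under library totals, 2 by DESeq2 for Crtc2 under ADF and 1 by DESeq2 for the interaction. Of 16007 genes, 511 were called higher under library totals, and 126 and 26 by DESeq2, in those comparisons. The number of members called lower for ADF in GFP muscle was 1 by DESeq2, under library totals and over genes of at least 10 CPM. Over all genes the numbers lower were 795 of 16007, 596 of 16007 and 750 of 7839. The number of ratios past the threshold was 8 to 9 between diets and 0 to 1 between vectors without 1 library.

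Sign changes under library totals were those of Cs (-0.030) and Ogdh (-0.024) for Crtc2 under ADF, of Idh3b (-0.034) and Mpc1 (-0.068) for ADF in GFP muscle, of Sdhd (-0.0034) for Crtc2 in fed muscle, and, for ADF in Crtc2 muscle, of Idh3g (-0.12), Sdhb (-0.17), Sdhc (-0.063), Sdhaf1 (-0.26) and Sdhaf2 (-0.12). Over genes of at least 10 CPM they were Idh3b (-0.034) and Mpc1 (-0.075) for ADF in GFP muscle, Sdhaf1 (-0.022) for ADF in Crtc2 muscle and Sdhd (-0.014) in fed muscle. DESeq2 and RLE scaling each gave -0.0049 for Sdhd in fed muscle and -0.017 for Mpc1. The length offset gave 0.0013 for Sdhb in fed muscle and -0.023 for the Idh3a/Idh3b ratio between diets.

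Without 1 library, the log2 ranges that crossed 0 were, for Crtc2 in fed muscle, -0.17 to 0.094 for Cs, -0.16 to 0.095 for Idh3a, -0.14 to 0.054 for Idh3g, -0.088 to 0.072 for Sdhb and -0.15 to 0.087 for Sdhd. For ADF in GFP muscle they were -0.018 to 0.17 for Idh3b, -0.21 to 0.019 for Idh3g, -0.22 to 0.060 for Sdhc and -0.13 to 0.14 for Mpc1, and for ADF in Crtc2 muscle -0.17 to 0.77 for Sdhaf1. The Idh3a/Idh3b ratio ran from -0.022 to 0.087 between diets and -0.018 to 0.097 between vectors, and between vectors Sdhb/Sdhc ran from -0.072 to 0.058, Sdhb/Sdhd from -0.031 to 0.076 and Sdhc/Sdhd from -0.034 to 0.15.

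With the replicate number of the labels as a block, 0 genes were called for Crtc2 in fed muscle, 106 under ADF, 1088 for ADF in GFP muscle, 1664 in Crtc2 muscle and 0 for the interaction, and no member's call changed. Of the named pathway genes the block changed the calls of Got2 in GFP muscle (0.69, adjusted p = 0.0603) and Dld in Crtc2 muscle (0.92, adjusted p = 0.0503). The numbers gave no clear sign of pairing. Over 7789 genes the deviations of 18 same-numbered pairs from their group means correlated between -0.12 and 0.31, 1 of them over 0.1. Highest correlations were with a library of the same number for 5 of 12 libraries. Deviations from means of 3 libraries are tied to each other, so this check cannot tell whether the libraries are paired.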
